A study of Arabidopsis thaliana with 8 samples.

Results

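Messenger RNA of *Arabidopsis thaliana* rosette leaves was sequenced in 8 libraries of 4 genotypes, and 53 genes were found that gave almost no reads in the wild type and clear signal in both lines that carry the *somi2* mutation. A gene was taken into the set when it had at most 3 counts in each of the 2 Col-0 libraries, a mean of at least 0.7 CPM (counts scaled by the total of the library) in *somi2* and in *mips1 somi2*, and a mean under 0.7 CPM in *mips1*. Of the 37336 genes in the count table, 13436 met the limit for Col-0. Of these, 64 met all the limits, and 11 of them, namely 4 single genes and 7 genes of a run on chromosome 4, are left out by the selection and not described here. Because the levels in all 4 genotypes chose the genes, the members' contrasts of each line with Col-0 and of the *somi2* lines with *mips1* are described below without a test. For *mips1 somi2* and *somi2* the selection set the same lower limit and no rule on their difference, which was tested. Genes that passed this limit in only 1 of the 2 lines are not in the set.

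The study asked which transcripts go with the suppression of cell death by *somi2* in *mips1*, a mutant that forms lesions on its leaves after transfer to long days. All lines are in the Col-0 background and each genotype has 2 libraries. For the *somi2* lines the labels give the mutated gene, *BIG*, but no allele, which is read as *somi2* from the study's text. *BIG* encodes a very large protein linked to auxin transport and N-degron recognition. The *somi2* allele came from EMS mutagenesis of the T-DNA line *mips1-1*, which lacks a working myo-inositol-1-phosphate synthase, and carries a small deletion that brings an early stop codon. *somi2* and *mips1 somi2* thus descend from the same mutagenized line, and other mutations linked to the *somi2* allele cannot be told apart from it in these libraries. According to the labels, plants spent 1 week on agar in long days, 2 weeks on soil in short days and 5 days in long days again, while the methods of the study give other lengths for these stages. RNA was pooled from the leaves of several plants. Nothing states that the libraries of a genotype came from separate cultures, so that p-values measure only the spread between these libraries.

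Library totals ranged from 50123257 to 104501879 counts, and 3 counts corresponded to 0.0287 to 0.0599 CPM. This limit covers counting error only. *MIPS1* reached 100 and 129 CPM in Col-0 and 106 and 97.1 in *somi2*, against 5.66 and 6.43 in *mips1* and 10.8 and 11.9 in the double mutant, in keeping with the labels. *BIG* itself was at 94.1 and 112 CPM in Col-0, 57.8 and 63.7 in *somi2*, and 102 and 99.0 in the double mutant, while *mips1* had 219 and 222. The 2 Col-0 libraries stood apart from each other, with a chi-square of 128 per gene between replicates against 4.95 to 10.8 in the other genotypes, and they also differed most in depth. Without Col-0 replicate 1 the limits gave 55 genes, and without replicate 2, the deeper library, 96, and all 53 genes were among both. The calls against Col-0 depended on the scaling. TMM, which corrects for differences in library composition, gave 6129 genes up and 5646 down in *somi2*, and scaling by library size alone gave 11506 and 2109, with the median of all genes moved to 0.27 on the log2 scale. For *mips1 somi2* it was 7428 and 7338 with TMM and 13721 and 2848 by size (median 0.38), and for *mips1* 8602 and 8877 against 12033 and 5813 (median 0.30). Counts of listed genes called against Col-0 are therefore given also by size and without each Col-0 library, alternatives chosen after the data were seen. A listed gene with at most 3 counts in each Col-0 library could pass the expression filter of edgeR only through the mutant lines. Such a gene could be called up but hardly down, so the filter fixes part of these counts. The summed level of 5 leaf mesophyll genes was 45096 to 47158 CPM in Col-0, 36752 to 37202 in *somi2*, 30724 to 32735 in *mips1 somi2* and 15069 to 15724 in *mips1*. Since whole leaves were sampled, fewer cells of a type and less RNA per cell cannot be told apart in any value given here.

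A few members lie on lists of genes whose roles are outlined here. These are 2 for trichome initiation, 2 for suberin, 1 for meristem and boundary and 1 for growth-regulating factors. Trichomes, the hairs of the leaf surface, start from epidermal cells of young leaves in which an R2R3-MYB protein joins bHLH and WD40 partners. Suberin and cutin are polyesters of hydroxylated fatty acids that seal roots and the leaf surface, and peroxidases and laccases oxidise phenolics in their aromatic parts and in lignin. KNOX proteins act in the meristem, LOB marks the boundary between the meristem and new organs, and growth-regulating factors keep the cells of young leaves dividing.

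To show what lies in front of the genes on which the description turns, the 250 bases upstream of the annotated start are given for 5 members, taken from RefSeq for the TAIR10 genome and written 5′ to 3′ on the strand of the gene. *MYB0* and *GRF5* regulate trichomes and leaf growth, *LOB* marks boundaries, *CYP86A1* makes suberin monomers and AT1G62500 was the most abundant member. Capitals mark matches to 8 short motifs searched on both strands, CACGTG (G-box), TTGACC and TTGACT (W-box), GCCGCC (GCC-box), TGTCTC and TGTCGG (auxin response elements), AACGG (the core of a cell-cycle element) and AAACCCTA (telo-box).
MYB0 (chr3:10363608-10363857, minus strand): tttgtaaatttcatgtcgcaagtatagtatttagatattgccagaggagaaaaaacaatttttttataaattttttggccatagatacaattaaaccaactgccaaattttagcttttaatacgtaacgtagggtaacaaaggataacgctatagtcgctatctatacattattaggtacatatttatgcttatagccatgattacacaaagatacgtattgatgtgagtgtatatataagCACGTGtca
GRF5 (chr3:4607826-4608075, plus strand): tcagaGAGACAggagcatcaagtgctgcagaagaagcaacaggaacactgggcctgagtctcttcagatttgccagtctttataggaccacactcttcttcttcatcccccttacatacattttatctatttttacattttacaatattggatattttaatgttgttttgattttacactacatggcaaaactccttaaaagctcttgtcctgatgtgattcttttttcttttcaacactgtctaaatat
LOB (chr5:25311020-25311269, minus strand): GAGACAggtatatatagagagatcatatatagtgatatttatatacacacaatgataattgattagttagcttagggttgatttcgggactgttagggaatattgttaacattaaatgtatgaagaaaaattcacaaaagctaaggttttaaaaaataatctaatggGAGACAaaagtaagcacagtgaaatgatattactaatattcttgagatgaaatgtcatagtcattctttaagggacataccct
CYP86A1 (chr5:23768112-23768361, minus strand): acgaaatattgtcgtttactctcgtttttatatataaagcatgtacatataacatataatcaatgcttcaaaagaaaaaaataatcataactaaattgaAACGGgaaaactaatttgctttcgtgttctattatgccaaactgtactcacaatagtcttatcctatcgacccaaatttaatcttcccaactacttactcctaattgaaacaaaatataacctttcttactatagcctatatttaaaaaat
AT1G62500 (chr1:23131678-23131927, plus strand): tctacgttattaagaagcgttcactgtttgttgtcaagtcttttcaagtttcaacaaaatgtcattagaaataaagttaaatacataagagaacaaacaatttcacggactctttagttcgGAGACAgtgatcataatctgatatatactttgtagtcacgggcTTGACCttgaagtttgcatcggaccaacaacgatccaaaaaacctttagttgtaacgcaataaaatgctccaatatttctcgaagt

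TGTCTC stood in the upstream window of 9 of the 53 genes (17.0%), against 10.9% of all nuclear genes, and *LOB* had it at positions -250 and -83, counted from the annotated start. *GRF5* carried it at -245 and AT1G62500 at -129. TTGACT was found in 15.1% of the members, 18.5% of all genes and 29.2% of the 243 genes that were silent in Col-0 and passed 0.7 CPM in *mips1* only. TTGACC followed the same order with 11.3%, 11.5% and 18.1%. CACGTG stood in 1 member, *MYB0*, at -9 (1.89% against 5.46% of all genes), GCCGCC in 1.89% against 1.97%, TGTCGG in 3.77% against 4.10%, AACGG in 15.1% against 20.6% and AAACCCTA in 3.77% against 4.76%. In 21 members none of the 8 motifs was found. Genes share neighbours and family members, so these shares are descriptions, and a match of letters is not a binding site. The windows of the members held 30.1% G and C on average, against 32.2% over all genes.

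The 53 genes together were near 0 in Col-0 and *mips1* and took a small share of the *somi2*-line libraries. Their summed level was 0.758 and 0.480 CPM in Col-0 and 2.59 and 2.55 in *mips1*, against 137 and 140 in *somi2* and 181 and 169 in *mips1 somi2*. In all 53 genes every *somi2* and *mips1 somi2* library lay above every Col-0 and *mips1* library, which the selection goes a long way to fix. Most members were weakly expressed even when on. The mean in *somi2* ranged from 0.709 to 40.9 CPM with a median of 1.52, 26 genes stayed under 2 CPM in both *somi2* lines and only 4 passed 5 CPM in one of them. In 16 genes both Col-0 libraries had 0 counts, and in 6 of these (*MYB0*, *CYP708A1*, AT1G12805, AT1G48660, AT3G26550 and AT5G01870) the *mips1* libraries had none either. Measured against a floor of 3 counts per Col-0 library, the level of those 16 genes in *somi2* was at least 16.9-fold to at least 185-fold higher. All 53 passed the expression filter of edgeR, through the libraries in which they are on.

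**Figure D1:**
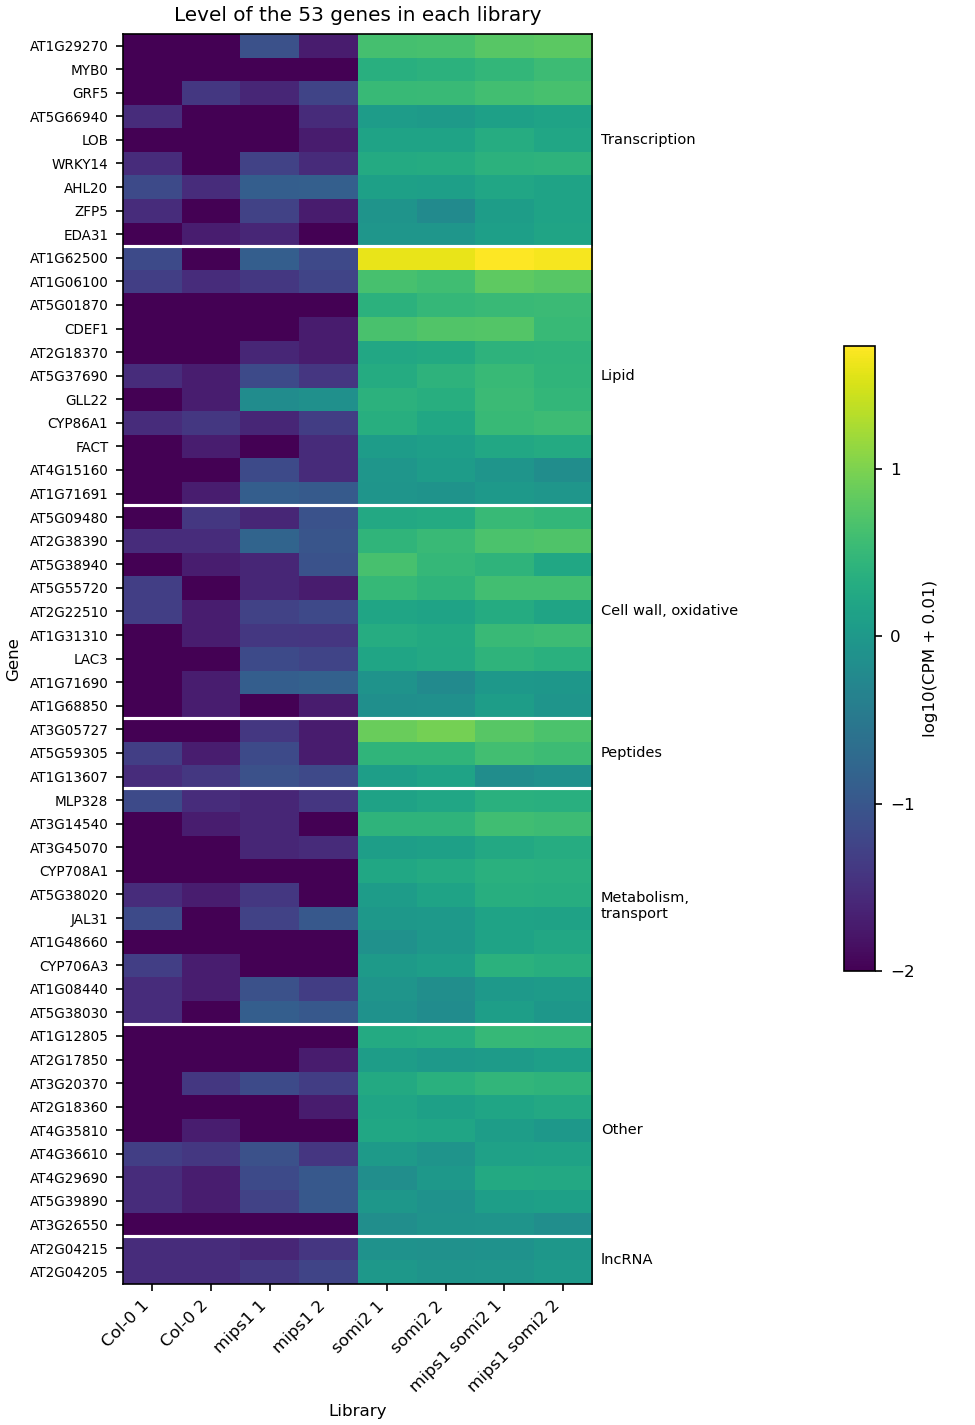
Level of the 53 genes (rows, grouped by role) in the 8 libraries (columns), as log10 of CPM plus 0.01. The rows are dark in the 4 Col-0 and *mips1* libraries and light in the 4 *somi2* and *mips1 somi2* libraries. AT1G62500 is the brightest row and *GLL22* has the highest level in *mips1*.

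The limits of the selection fell between genes of close value. Just inside the limit of 0.7 CPM were AT5G38030, a MATE efflux family gene at 0.709 in *somi2*, AT1G71690, a glucuronoxylan methyltransferase-like gene at 0.714 in *somi2*, and AT1G13607, a defensin-like gene at 0.715 in *mips1 somi2*. Just outside were *MYB113*, an anthocyanin regulator at 0.695 CPM in *somi2* and 4.40 in *mips1 somi2*, the aquaporin gene *TIP4;1* at 0.682 in *somi2*, and *IPS1*, a non-coding RNA of phosphate starvation at 0.679 in *mips1 somi2*. The member nearest to the limit in *mips1* was *GLL22*, a GDSL lipase-like gene with 0.694 CPM there, while all others were at 0.127 or lower. A further 7 genes missed the set with 4 counts in 1 or both Col-0 libraries. Among them were *FTM1* at 13.4 CPM in *somi2* and *AGL42* at 0.862.

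Going by their annotation, 9 of the 53 genes are transcription regulators, and these include the members with the best known roles in the leaf. *MYB0* (AT3G27920, chromosome 3 from 10361790 to 10363607), also called *GL1*, is the MYB protein that starts trichome fate. It had 0 counts in all 4 Col-0 and *mips1* libraries, 2.29 and 2.47 CPM in *somi2* and 2.91 and 3.68 in *mips1 somi2*. *ZFP5* (AT1G10480, chromosome 1 from 3449691 to 3451226), a zinc finger protein that acts upstream in trichome initiation, had 1 and 0 counts in Col-0, 3 and 1 in *mips1*, 0.837 and 0.605 CPM in *somi2* and 1.18 and 1.43 in *mips1 somi2*. Both genes were higher in the 2 *mips1 somi2* libraries than in the 2 *somi2* libraries, as 32.2% of all genes tested were after TMM scaling. Their fold changes between these lines, 0.36 ± 0.18 (standard error) for *MYB0* and 0.74 ± 0.29 for *ZFP5* on the log2 scale, did not pass the test (adjusted p = 0.203 and 0.0990, edgeR quasi-likelihood test with Benjamini-Hochberg adjustment).

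Other genes of trichome initiation, from a list of 16 put together after the members were known, were mixed. Of the 13 that were tested and are not members, 7 were called up in *somi2* against Col-0 and 4 down, beside 25.6% and 23.6% of all genes. Among the genes that rose were the bHLH partners of *MYB0*. *GL3* had 0.0200 and 0.0700 CPM in Col-0 and 1.13 and 1.32 in *somi2*, and *EGL3* had 0.579 and 0.550 in Col-0 and 4.84 and 5.01 in *somi2*. *TTG2*, a WRKY gene of the same pathway, went from 0.599 and 0.800 CPM to 5.54 and 4.89. The 4 genes called down were *TTG1*, *TCL1*, *GIS* and *ZFP8*, of which *TCL1* and *ZFP8* were still called down when libraries were scaled by size (8 up and 2 down). Without a Col-0 library 9 of 14 (replicate 1) and 6 of 13 (replicate 2) were up. Without replicate 1 the same 4 genes were down, and without replicate 2 it was *GL2* in place of *GIS*. For *TTG1*, the WD40 partner, the log2 fold change was -0.29 ± 0.06 after TMM scaling (adjusted p = 0.00254, edgeR with Benjamini-Hochberg adjustment), but its CPM overlapped, with 34.5 and 36.8 in Col-0 and 34.9 and 35.7 in *somi2*. *GL2*, a homeodomain gene that acts after the choice of fate, was at 149 and 99.8 CPM in Col-0 and 134 and 136 in *somi2*, ranges that overlap. *GL2* was thus expressed in wild-type leaves in which no read of *MYB0* was counted. The summed level of the 16 genes was 180 to 226 CPM in Col-0 and 222 to 225 in *somi2*, which overlap. It was 238 to 240 in *mips1 somi2* and 156 to 160 in *mips1*. After TMM scaling the median log2 fold change of the 13 genes against Col-0 was 1.08 in *somi2*, 1.45 in *mips1 somi2* and -0.54 in *mips1*.

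*GRF5* (AT3G13960, chromosome 3 from 4608076 to 4610497) promotes cell division in young leaves. It had 0 and 3 counts in Col-0, 1 and 5 in *mips1*, 3.26 and 3.41 CPM in *somi2* and 4.05 and 4.36 in *mips1 somi2*. The whole family of 9 growth-regulating factors was then set beside it, a list also chosen after the members were known. The 8 others were all tested and all called up in *somi2* and in *mips1 somi2* against Col-0, where 25.6% and 31.1% of all genes were. In the family of 9, 2 genes were silent in Col-0, *GRF5* among them. All 8 were also called up in both lines by size and without either Col-0 library. In *somi2* they ranged from *GRF1*, at 8.26 and 7.95 CPM in Col-0 and 15.3 and 16.3 in *somi2*, to *GRF6*, at 0.0399 and 0.04999 CPM in Col-0 and 1.06 and 1.07 in *somi2*. The log2 fold changes of these genes were 0.69 ± 0.08 and 4.21 ± 0.39 (adjusted p = 1.48e-05 and 2.58e-06, edgeR with Benjamini-Hochberg adjustment). The summed level of the 9 genes was 20.3 to 20.8 CPM in Col-0, 17.7 to 19.3 in *mips1*, 63.9 to 64.3 in *somi2* and 68.5 to 72.8 in *mips1 somi2*. In *mips1* 5 of the 8 were called down and 1 up, beside 37.1% and 36% of all genes. *GRF3* was the gene called up in *mips1*. By size 3 were down there, and 4 without either Col-0 library, with 1 up each time.

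**Figure D2:**
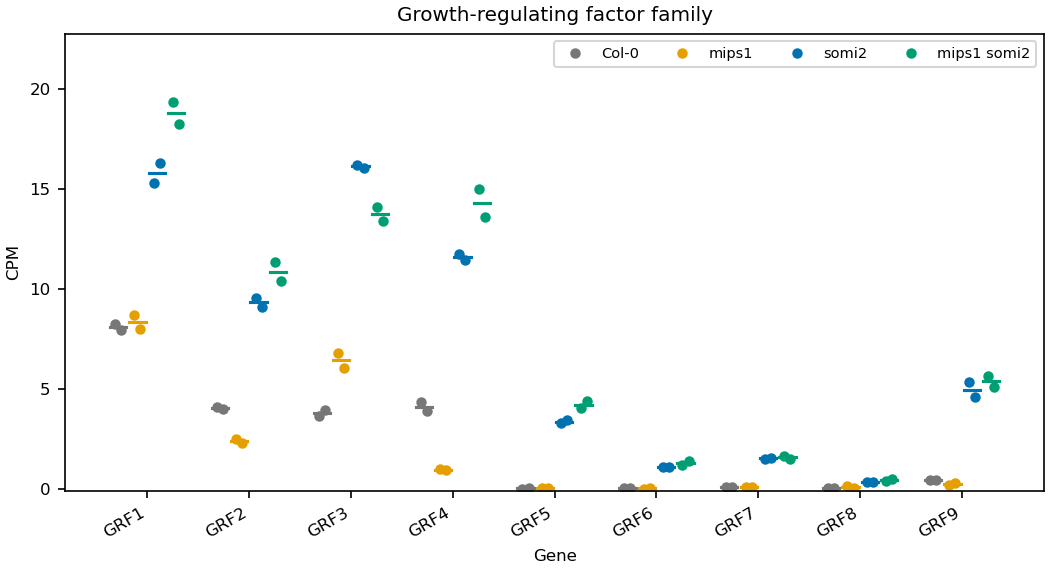
Level in CPM of the 9 growth-regulating factor genes in the 4 genotypes, with 1 point per library and a bar at the mean of 2 libraries. In *somi2* and *mips1 somi2* every gene lies above its Col-0 points, and *GRF5* is near 0 in Col-0 and *mips1*.

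*LOB* (AT5G63090, chromosome 5 from 25308516 to 25311019), which is expressed at the base of lateral organs and limits growth at the boundary, had 0 counts in both Col-0 libraries and 0 and 1 in *mips1*. It reached 1.48 and 1.44 CPM in *somi2*, at least 32.5-fold over the floor of Col-0, and 2.05 and 1.595 in *mips1 somi2*. Of the 12 other genes of the meristem and boundary list that were tested, 8 were called up in *somi2* and none down (beside 25.6% and 23.6% of all genes). Of the 17 listed genes, *LOB* included, 7 were silent in Col-0, and any of these that were tested could hardly be called down. In *mips1 somi2* 10 were up and 1, *CLV1*, was down (31.1% and 30.7%), although the CPM of *CLV1* was not lower, at 39.9 and 46.3 in Col-0 and 48.7 and 46.6 in *mips1 somi2*. By size 10 and 11 were up in the 2 lines and none down. Without either Col-0 library 8 were up in *somi2* and 9 in *mips1 somi2*, and *CLV1* was called down in both lines without replicate 1 and in neither without replicate 2. The KNOX gene *KNAT1* was at 0.0998 and 0.0600 CPM in Col-0 and 4.10 and 3.94 in *somi2*, a log2 fold change of 5.47 ± 0.23 (adjusted p = 3.21e-09, edgeR with Benjamini-Hochberg adjustment). *CUC3*, a NAC gene of organ separation, was at 0.0599 and 0.07999 CPM in Col-0 and 1.14 and 1.19 in *somi2*. *BOP1*, a boundary regulator of the BTB-ankyrin family, had 0 and 0.0200 CPM in Col-0 and 0.558 and 0.465 in *somi2*, which is under the limit of 0.7 CPM. The stem cell genes *WUS* and *CLV3*, in contrast, had means of at most 0.0364 CPM in every genotype and did not pass the expression filter. The summed level of all 17 listed genes was 87.4 to 96.3 CPM in Col-0, 74.5 to 76.2 in *mips1*, 123 to 125 in *somi2* and 134 to 139 in *mips1 somi2*, and the part of meristem and boundary tissue in the level of the members was not tested.

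The remaining regulators are less well described. AT1G29270 (chromosome 1 from 10229808 to 10231384), annotated as bHLH35-like, had the highest level per length among the 9 regulators (4.12 RPKM, CPM per kilobase of exon), with 0 counts in both Col-0 libraries, 5 and 1 in *mips1*, 4.23 and 4.37 CPM in *somi2* and 5.77 and 6.17 in *mips1 somi2*. This is at least 95.7-fold over the Col-0 floor in *somi2* and at least 133-fold in *mips1 somi2*. *WRKY14* had 1 and 0 counts in Col-0, 1.88 and 1.97 CPM in *somi2* and 2.54 and 2.62 in *mips1 somi2*. *AHL20*, which encodes an AT-hook protein of the nucleus, had 3 and 2 counts in Col-0, 8 and 13 in *mips1*, 1.33 and 1.29 CPM in *somi2* and 1.61 and 1.43 in *mips1 somi2*. For these 3 genes the *mips1 somi2* libraries stood above those of *somi2*, but *AHL20* overlapped after TMM scaling. The homeodomain-like gene *EDA31* had 0 and 1 counts in Col-0, 0.907 and 0.915 CPM in *somi2* and 1.28 and 1.53 in *mips1 somi2*. The Dof zinc finger gene AT5G66940 had 1 and 0 counts in Col-0, 1.16 and 1.07 CPM in *somi2* and 1.303 and 1.45 in *mips1 somi2*. After TMM scaling both *mips1 somi2* libraries lay above both *somi2* libraries in 7 of the 9 regulators (all but *AHL20* and *LOB*), as in 71.7% of the 53 members and 32.2% of all genes tested. None of the 9 differences passed the test.

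**Figure D3:**
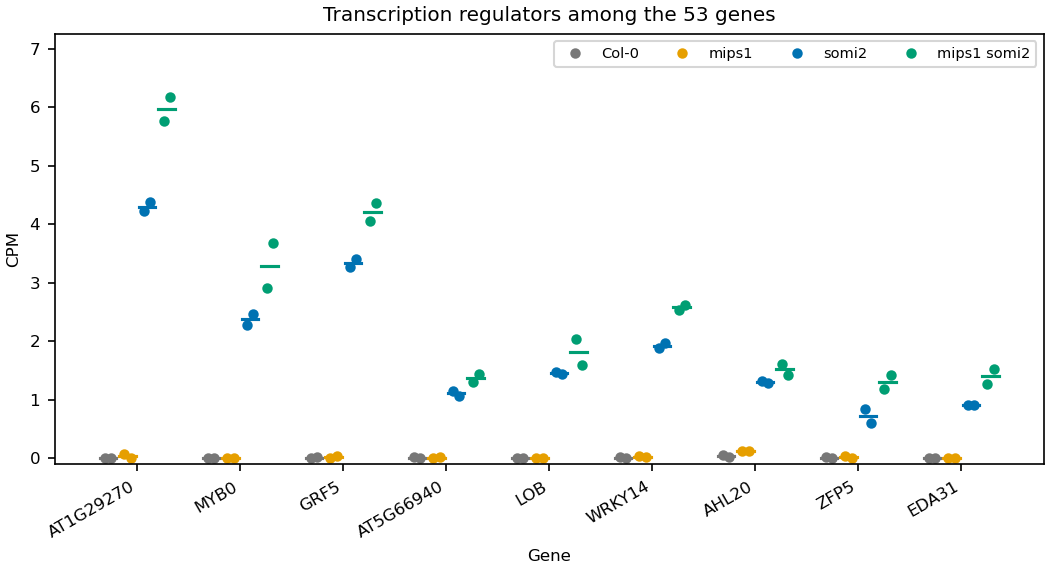
Level in CPM of the 9 transcription regulators in the 4 genotypes, with 1 point per library and a bar at the mean of 2 libraries. Col-0 and *mips1* points lie near 0, and in these values before TMM scaling both *mips1 somi2* points lie above both *somi2* points in each gene.

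Lipid enzymes, lipases and lipid-transfer proteins were the largest group, with 11 genes. AT1G62500 (chromosome 1 from 23131928 to 23133507), of the lipid-transfer and 2S albumin superfamily, alone gave 28.6% to 30.03% of all counts of the set in the 4 *somi2*-line libraries. It had 3 and 0 counts in Col-0, 8 and 6 in *mips1*, 40.3 and 41.4 CPM in *somi2* and 54.3 and 48.4 in *mips1 somi2*. Per length of exon it was also first, with 29.2 RPKM over the 4 libraries, followed by the peptide gene AT3G05727 with 13.2 RPKM, while the median of the 53 genes was 1.39 RPKM. A second gene of this superfamily, AT5G01870, had 0 counts in all 4 Col-0 and *mips1* libraries, 2.48 and 3.06 CPM in *somi2* and 3.43 and 3.47 in *mips1 somi2*. AT2G18370 had 0 counts in Col-0, 1 in each *mips1* library, 1.72 and 1.86 CPM in *somi2* and 2.61 and 2.64 in *mips1 somi2*. In all, 4 members (7.55%) belong to this superfamily, against 0.445% of the 13255 other nuclear genes silent in Col-0 and 0.412% of those on in *mips1* only. Over all nuclear genes it was 0.286%. The limit on CPM favours genes with any expression, so these shares are descriptions.

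*CYP86A1* (AT5G58860, chromosome 5 from 23765791 to 23768111), a fatty acid hydroxylase that makes monomers of root suberin, had 1 and 3 counts in Col-0, 1 and 4 in *mips1*, 2.22 and 1.64 CPM in *somi2* and 3.28 and 3.66 in *mips1 somi2*. The 2 lines did not overlap, and the gene rose further in the double mutant, with a log2 fold change of 0.73 ± 0.19 (adjusted p = 0.0173, edgeR quasi-likelihood test with Benjamini-Hochberg adjustment). Such a rise without overlap was seen in 32.2% of all genes tested after TMM scaling. *FACT*, an acyltransferase of waxes that go with suberin, named here after its values were seen, had 0 and 1 counts in Col-0, 1.13 and 1.27 CPM in *somi2* and 1.71 and 1.89 in *mips1 somi2*. Of 14 other tested suberin genes, on a list chosen after the members were known, 9 were called up in *somi2* and 2 (*FAR1* and *ABCG20*) down, beside 25.6% and 23.6% of all genes. On the whole list of 19 genes, members included, 9 were silent in Col-0, and any of these that were tested could hardly be called down. It was 10 and 1 by size, 9 and 2 without Col-0 replicate 1 and 8 and 1 without replicate 2, and the gene still down was *FAR1*. *CYP86B1*, which hydroxylates longer fatty acids, had 0 and 0.009998 CPM in Col-0 and 0.558 in each *somi2* library. The reductase genes *FAR4* and *FAR5*, which make the fatty alcohols of suberin, had means of 0.523 and 1.91 CPM in *somi2*, but they also reached 0.472 and 1.33 in *mips1*. *FAR1* had 15.9 and 22.6 CPM in Col-0 and 14.6 and 12.7 in *somi2*. *ABCG20* was at 5.43 and 6.65 CPM in Col-0 and 5.51 and 6.22 in *somi2*, which overlap before scaling. The summed level of the 19 genes was 115 to 127 CPM in Col-0 and 140 to 143 in *somi2*. It was 136 to 142 in *mips1 somi2* and 113 to 119 in *mips1*. After TMM scaling the median log2 fold change of the 14 genes against Col-0 was 1.55 in *somi2*, 2.03 in *mips1 somi2* and 0.67 in *mips1*.

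Root markers were measured beside these genes, since suberin is best known from roots. Of the 16 genes on the list 9 were silent in Col-0 (at most 3 counts in each library), and of the 9 tested genes 5 (*PYK10*, *MYB36*, *WOX5*, *WER* and *NRT2.1*) were called up in *somi2* and none down, beside 25.6% and 23.6% of all genes. Tested genes that were silent in Col-0, such as *MYB36*, passed the filter only through other lines and could hardly be called down. By size 7 were up, and without either Col-0 library 4. The summed level was 35.4 to 37.0 CPM in Col-0, 40.3 to 43.0 in *mips1*, 96.4 to 102 in *somi2* and 115 to 119 in *mips1 somi2*. In the *somi2* lines most of this came from *PYK10*, a beta-glucosidase gene of roots and hypocotyls, at 5.39 and 3.87 CPM in Col-0 and 57.5 and 60.6 in *somi2*. In Col-0 and *mips1* the most abundant listed gene was *SCR*, a GRAS gene of the root endodermis that leaves express too, at 15.6 to 24.5 CPM. *MYB36*, which directs the endodermal barrier, had 0 counts in Col-0 and 0.223 and 0.295 CPM in *somi2*. The root hair genes *RHD6*, *COBL9*, *EXPA7* and *EXPA18*, the meristem genes *PLT1* and *PLT2* and the iron transporter gene *IRT1* had means of at most 0.0362 CPM in every genotype. The part of root markers in the level of the 53 genes was not tested. Markers of seed and embryo had a summed level of 1.67 to 3.21 CPM over all libraries, and no member was on the lists for root, flower, anther or seed.

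Genes of ester cleavage formed a further group among the lipid genes. *CDEF1* (AT4G30140, chromosome 4 from 14738326 to 14740742), a cutinase, had 0 counts in Col-0 and 0 and 1 in *mips1*, 4.55 and 5.31 CPM in *somi2* and 5.49 and 3.24 in *mips1 somi2*, so that the 2 lines overlapped. Its gene shares 10 bp with AT4G30130 on the other strand. With *GLL22*, AT1G71691 and AT5G37690 it makes 4 GDSL or SGNH esterases (7.55%), against 0.309% of the other genes silent in Col-0 and 1.23% of those on in *mips1* only. Over all nuclear genes the share was 0.310%. *GLL22* was the exception among all members in *mips1*, with 43 and 78 counts there and 0 and 1 in Col-0. The desaturase family gene AT1G06100 had 2 counts in each Col-0 library, 4.40 and 3.88 CPM in *somi2* and 6.34 and 5.76 in *mips1 somi2*, and rose in the double mutant by 0.44 ± 0.14 on the log2 scale (adjusted p = 0.0423, edgeR with Benjamini-Hochberg adjustment).

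Cell wall and oxidative enzymes gave 9 genes. The class III peroxidase gene AT2G38390, of a family that oxidises wall phenolics with hydrogen peroxide, had 1 and 2 counts in Col-0, 10 and 9 in *mips1*, 2.75 and 3.35 CPM in *somi2* and 4.81 and 5.05 in *mips1 somi2*. AT1G31310 was placed in this group only by its annotation as a hydroxyproline-rich glycoprotein. It had 0 and 1 counts in Col-0, 2.05 and 1.85 CPM in *somi2* and 3.36 and 3.63 in *mips1 somi2*. Neither gene overlapped between the 2 lines and both rose in the double mutant, by 0.58 ± 0.15 (adjusted p = 0.0187) and 0.73 ± 0.17 (adjusted p = 0.00832) on the log2 scale by the quasi-likelihood test of edgeR. After TMM scaling both *mips1 somi2* libraries lay above both *somi2* libraries in 32.2% of all genes tested. The cupin gene AT5G38940 went the other way, with 0 and 1 counts in Col-0, 4.38 and 3.02 CPM in *somi2* and 2.66 and 1.68 in *mips1 somi2*, a fall by 0.88 ± 0.27 (adjusted p = 0.0450, the same test). AT5G09480, a second hydroxyproline-rich glycoprotein gene, had 1.81 and 1.92 CPM in *somi2* and 3.24 and 2.98 in *mips1 somi2* and did not pass (adjusted p = 0.0695, edgeR with Benjamini-Hochberg adjustment). *LAC3*, a laccase gene named after its values were seen, had 0 counts in Col-0, 1.58 and 1.78 CPM in *somi2* and 2.67 and 2.33 in *mips1 somi2*.

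The 3 genes of small peptides were among the most abundant per length, at 2.28 to 13.2 RPKM. AT3G05727 (chromosome 3 from 1693548 to 1694140), annotated by its likeness to pollen coat proteins of the defensin-like kind, had 0 counts in Col-0, 2 and 1 in *mips1*, 7.66 and 8.98 CPM in *somi2* and 5.84 and 4.74 in *mips1 somi2*. Its level in *somi2* was at least 185-fold above the floor of Col-0, the largest such bound among the 16 genes with 0 counts. The defensin-like gene AT1G13607 had 1 and 3 counts in Col-0, 5 and 6 in *mips1*, 1.24 and 1.44 CPM in *somi2* and 0.665 and 0.765 in *mips1 somi2*. Both genes were lower in both double mutant libraries, as 33.5% of all genes tested were after TMM scaling. Their log2 fold changes were -0.76 ± 0.15 (adjusted p = 0.00355) and -1.02 ± 0.22 (adjusted p = 0.00598) by the quasi-likelihood test of edgeR. The third, AT5G59305, encodes a CLE-like protein of the kind that signals between cells, and had 2.76 and 2.73 CPM in *somi2* and 3.95 and 3.58 in *mips1 somi2* (adjusted p = 0.253, the same test).

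Specialised metabolism, transport and defence gave 10 genes, all of them with a positive log2 fold change between *mips1 somi2* and *somi2*. *CYP706A3* (AT5G44620, chromosome 5 from 17997597 to 18000451), a P450 known to oxidise terpenes in flowers, had 2 and 1 counts in Col-0, none in *mips1*, 1.07 and 1.23 CPM in *somi2* and 2.39 and 2.20 in *mips1 somi2*. AT1G48660, of the GH3 family whose enzymes join amino acids to hormones and other acids, had 0 counts in all Col-0 and *mips1* libraries, 0.767 and 0.962 CPM in *somi2* and 1.48 and 1.73 in *mips1 somi2*. These 2 genes rose in the double mutant by 0.89 ± 0.21 (adjusted p = 0.0121) and 0.78 ± 0.23 (adjusted p = 0.0407) on the log2 scale by the quasi-likelihood test of edgeR. The other 8, among them a second P450 gene (*CYP708A1*), a terpenoid cyclase family gene (AT3G14540), a malate transporter family gene (AT1G08440) and the lectin gene *JAL31*, did not pass the test. These 4 were chosen as examples after their values were seen. *CYP708A1* overlaps a pair of genes on the opposite strand. It shares 593 bp with AT1G55945, an uncharacterized gene that had no counts in the Col-0 or *mips1* libraries and means of 0.440 CPM in *somi2* and 0.642 CPM in the double mutant. Reads in that stretch cannot be assigned to one of the genes. It shares 445 bp with AT1G55930, which had means of 19.0 to 24.9 CPM in the 4 genotypes. These overlaps are of whole gene spans, introns included. *CYP708A1* itself had no counts in the Col-0 and *mips1* libraries, although overlapping reads were counted for both genes. No read of AT1G55930 was thus counted for it there.

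Of the 9 other enzymes and unassigned proteins, 3 differed between the *somi2* lines. AT4G29690, of the alkaline-phosphatase-like family, had 1 count in each Col-0 library, 4 and 10 in *mips1*, 0.698 and 0.977 CPM in *somi2* and 1.86 and 1.77 in *mips1 somi2*, the largest rise among the members (1.01 ± 0.23 on the log2 scale, adjusted p = 0.00753, edgeR quasi-likelihood test). AT1G12805, annotated as a nucleotide binding protein, had 0 counts in Col-0 and *mips1*, 1.93 and 2.02 CPM in *somi2* and 3.14 and 3.09 in *mips1 somi2*, a rise by 0.55 ± 0.17 (adjusted p = 0.0444, the same test). AT4G35810, a 2-oxoglutarate and iron dependent oxygenase gene, had 0 and 1 counts in Col-0, none in *mips1*, 1.69 and 1.57 CPM in *somi2* and 1.17 and 0.977 in *mips1 somi2*, a fall by 0.71 ± 0.22 (adjusted p = 0.0452, the same test). All 3 genes had groups that did not overlap. After TMM scaling this was common, with both *mips1 somi2* libraries above both *somi2* libraries in 32.2% and below in 33.5% of all genes tested. AT5G39890 is *PCO2*, a plant cysteine oxidase that marks proteins for the N-degron pathway in the presence of oxygen, and is named here after its values were seen. It had 1 count in each Col-0 library, 3 and 10 in *mips1*, 0.935 and 0.791 CPM in *somi2* and 1.21 and 1.302 in *mips1 somi2*. Of the other 4 genes of that family 1 was called up and 1 down in *somi2*, beside 25.6% and 23.6% of all genes, and without either Col-0 library it was also 1 and 1, while by size it was 2 and 0. *PCO1* was called up, from 0.259 and 0.170 CPM to 2.68 and 1.91. *PCO5* was called down after TMM scaling and not by size, although its CPM was 19.3 in both Col-0 libraries and 19.9 and 20.3 in *somi2*.

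Between *mips1 somi2* and *somi2*, 8 members were called up and 4 down, beside 8.46% and 10.8% of all 23916 genes tested. These are 15.1% and 7.55% of the members. The selection set the same floor of 0.7 CPM for both lines and no rule on their difference. It left out 31 genes silent in Col-0 that passed the floor in *mips1 somi2* only and 8 that did so in *somi2* only. All genes tested had no such floor, so the shares are descriptions. The log2 fold change was positive in 44 members and negative in 9, while 49.1% of all genes were positive, and the median was 0.36 against -0.0045 over all genes. Between single libraries of the 2 lines the median of the members ranged from 0.29 to 0.37. After TMM scaling, both *mips1 somi2* libraries lay above both *somi2* libraries in 38 members and below in 5, beside 32.2% and 33.5% of all genes. By role, all 9 transcription regulators and all 10 genes of metabolism, transport and defence were positive, as were 9 of 11 lipid genes, 8 of 9 wall genes and 6 of 9 other genes, but only 1 of 3 peptide genes and 1 of 2 non-coding RNAs. The 2 non-coding RNAs overlap and share reads. The 4 genes that fell were 2 defensin-like peptides, the cupin and the oxygenase.

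The number of calls depended on the fit. It was 14 up and 2 down with libraries scaled by size alone, which moves the median of all genes to 0.10, and in that fit all genes gave 4172 up and 1476 down in place of 2023 and 2583. Without Col-0 replicate 1 or 2, 19 and 21 members were called up and 4 and 3 down, and without *mips1* replicate 1 it was 5 and 3. Without a library of the compared lines at most 1 was up and at most 2 were down (1 and 2 without *somi2* replicate 1, 1 and 0 without *somi2* replicate 2, 0 and 2 without *mips1 somi2* replicate 1, 1 and 1 without *mips1 somi2* replicate 2), in fits where the lone library is assumed to vary like the others. DESeq2 called 3 up (AT1G31310, AT4G29690 and *CYP706A3*) and 2 down (AT3G05727 and AT5G38940). Among the called members AT4G35810, AT1G06100 and AT1G12805 were called in the fewest alternatives. The 12 called members kept their direction in all 14 alternatives, with adjusted p from 8.54e-07 to 0.375.

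**Figure D4:**
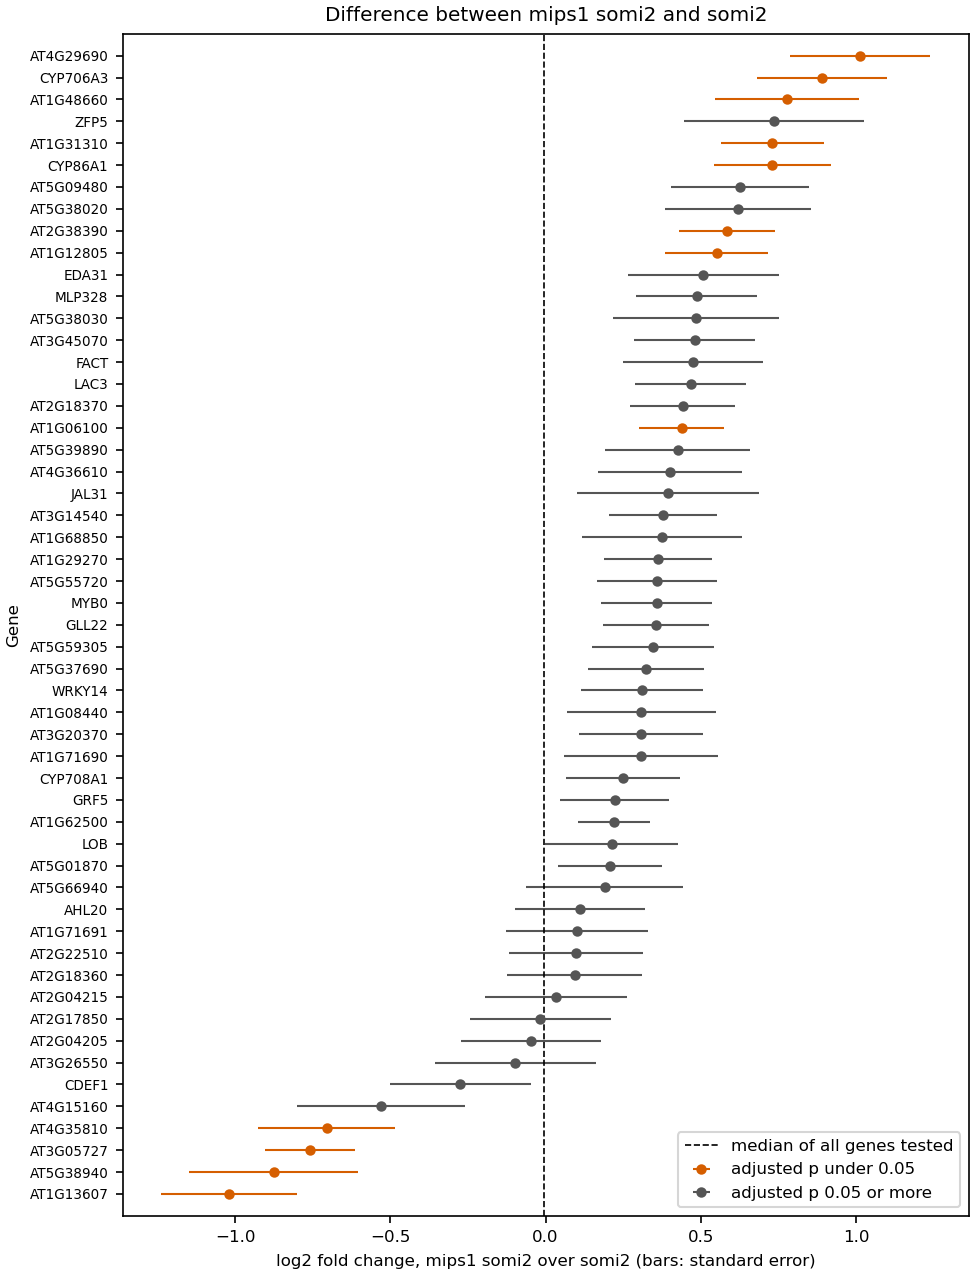
Log2 fold change between *mips1 somi2* and *somi2* for each of the 53 genes, with the standard error as a bar, ordered by value. The 8 called genes on the right and the 4 on the left are in orange, and the dashed line is the median of all genes tested.

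The members shared features of annotation that the selection did not name but on which its limit on expression bears. Most of the other genes silent in Col-0 stayed under 0.7 CPM in every mutant line too. Of the 53 genes, 51 code for proteins (96.2%), against 46.3% of the other nuclear genes silent in Col-0 and 86.0% of the genes silent in Col-0 and on in *mips1* only. Over all nuclear genes it was 74.0%. None is annotated as a pseudogene or a transposable element, where 27.3% and 0.226% of the other silent genes are. The median exon length was 1405 bp, against 774 bp for the other silent genes and 1391 bp for all genes. The limit on CPM favours long genes and genes with any expression, so that these values are descriptions. Hydroxyproline-rich glycoproteins gave 3 members (5.66% against 0.166% of other silent genes), P450 genes 3 (5.66% against 0.604%) and class III peroxidases 2 (3.77% against 0.166%). Among the 243 genes on in *mips1* only, the shares were 0%, 1.23% and 1.65%, and over all nuclear genes 0.291%, 0.588% and 0.167%. Both flanking genes were also silent in Col-0 for 11 members (20.8%), against 42.4% of the other silent genes and 19.3% of all genes.

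Along the genome the members were spread over the 5 chromosomes, with 15, 9, 9, 6 and 14 genes on chromosomes 1 to 5. Only 4 pairs lay within 10 kb of each other. AT1G71690 and AT1G71691 overlap by 506 bp on opposite strands, and their levels in *somi2* were 0.823 and 0.605 CPM and 0.865 and 0.807 CPM. The non-coding RNAs AT2G04205 and AT2G04215 overlap by 336 bp on opposite strands, with 0.963 and 0.838 CPM and 0.795 and 0.760 CPM in *somi2*. Since the counting used no strand, reads of the partners cannot be told apart within these overlaps. AT2G04215 lies in the overlap over its whole length of 336 bp, while its partner has 1056 bp of exon. Overlapping reads were counted for both genes, so the reads of AT2G04215 were counted for AT2G04205 too. These 2 members are therefore not separate measurements. AT1G71690 and AT1G71691 have 1124 and 1902 bp of exon. AT2G18360, an alpha/beta-hydrolase gene with 1.58 and 1.303 CPM in *somi2*, lies 1101 bp from the lipid-transfer gene AT2G18370. AT5G38020, a methyltransferase family gene with 1.14 and 1.44 CPM, lies 3278 bp from AT5G38030. None of these groups held more than 2 members, and the gene run on chromosome 4 is not part of the set.

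The set was one of several patterns among genes silent in Col-0. While 53 genes passed 0.7 CPM in both *somi2* lines only, 243 did so in *mips1* only, 31 in *mips1 somi2* only, 8 in *somi2* only, 28 in *mips1* and *mips1 somi2*, 2 in all 3 lines and none in *somi2* and *mips1* without the double mutant. These counts follow from the same limits and carry no test. The 2 genes on in all 3 lines were AT1G62420, at 2.702 CPM in *mips1* and 3.52 in *somi2*, and *OSM34*, an osmotin-like gene, at 55.4 CPM in *mips1* and 1.17 in *somi2*.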

How the data were processed

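Libraries of poly(A) RNA were made by the authors with a kit that marks strand, per their methods, and sequenced as single reads. The deposited count table holds raw counts per gene of the Araport11 annotation from the authors' featureCounts 1.6.3, after Trimmomatic and STAR 2.7.0d on TAIR10, per the submitters' processing notes. Per the file headers, counting used no strand option, a minimum mapping quality of 10, and included multi-mapping and overlapping reads, so that reads shared by gene copies are uncertain. The deposited length column, summed exon bp from the authors' tool, gave RPKM. The signal in a second deposited table is normalized counts, which the authors made by dividing counts by DESeq2 size factors, and was used only to check that all 53 genes are listed among its 21508. The authors' comparison tables hold log2 fold changes, p-values and adjusted p-values and were not used.

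CPM was computed as counts over the library total. Of 37336 genes, 37051 were matched to RefSeq for product, position and upstream sequence (start and end were equal for 52 of 53 members). All 4 genotypes were fitted with edgeR 4.0.16 (TMM, filterByExpr, robust glmQLFit, 4 residual degrees of freedom) in R 4.3.3, and genes were called at a Benjamini-Hochberg adjusted p under 0.05 over 23916 genes. Standard errors are fold changes divided by the square root of F. The code was tested on simulated data. Alternatives were DESeq2 1.42.0, RLE or library-size scaling, other count filters, only the compared libraries, a replicate block, each library left out, and other limits of the selection. Library-size scaling and leaving out each Col-0 library were added for the listed genes against Col-0 after the data were seen. Genes were named if they were on a list, among the 12 highest in RPKM, called (at most 6 in each direction), within 10 kb of another member, transcription factors, next to a limit (3 on each side) or at 0.35 CPM or more in *mips1*. The members and lists were chosen with earlier results of these data known. Lists for flower and anther genes, Aux/IAA genes and loci silenced by DNA methylation held no member: of their tested genes, 2 and 4 of 15, 1 and 0 of 5, 4 and 1 of 6 and 0 and 2 of 2 were called up and down in *somi2*, beside 25.6% and 23.6% of all genes. For seed genes it was 1 and 1 of 5, and for leaf mesophyll 0 and 5 of 5. Scaled by size, these 6 lists gave 2 and 3, 2 and 0, 4 and 0, 0 and 2, 1 and 1, and 0 and 4. Without Col-0 replicate 1 they gave 3 and 4 of 17, 1 and 0, 3 and 0, 0 and 2, 3 and 1 of 7, and 0 and 5. Without replicate 2 they gave 2 and 4, 0 and 1, 3 and 1, 0 and 2, 1 and 1 of 6, and 0 and 5.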

Additional observations from a re-analysis of the deposited data

How the results depend on the processing

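Against 2023 genes up and 2583 down between *mips1 somi2* and *somi2*, with 8 and 4 members, scaling by library size alone gave 4172 and 1476 genes, 14 and 2 members and a member median of 0.47 (log2). RLE scaling left 2 members down, and DESeq2 left 3 up and 2 down. With only the compared libraries, 3710 genes and 24 members were up. The replicate block gave 5 members up and 3 down, and replicate numbers did not pair the libraries (correlations of deviations -0.22 to 0.21). With each library left out, 884 to 3652 genes were up and 1201 to 3939 down, members 0 to 21 and 0 to 4, with medians of 0.28 to 0.38. Under at least 10 counts in every library no member could be tested. In all 14 other alternatives the 12 called members kept their direction, and each was called in 4 to 12 of them.

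The set itself held 16 genes with 0 counts as the Col-0 limit, 117 with 10, 87 at 0.5 CPM and 51 to 96 with each library left out (96 without Col-0 replicate 2, the deeper one). With 1 CPM it was 37, with TMM-scaled CPM 49 and with every library past the limit 44, and 4 neighbouring pairs were found at 5, 10 and 20 kb. Depth limits the choice most in Col-0, where 3 counts stood for 0.0599 CPM in replicate 1 and 0.02999 in replicate 2.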
